A study of Mus musculus with 4 samples.

Results

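The T cell receptor complex and the CD8 coreceptor were followed through 10 genes, of 32285 in the matrices, in CD8-positive T cells from mouse tumours. The genes were taken by symbol: Cd8a and Cd8b1, which encode the alpha and beta chains of CD8; Cd3g, Cd3d, Cd3e and Cd247, which encode the gamma, delta, epsilon and zeta chains of the receptor; the kinase gene Lck; Cd5 and Cd6, which encode a pair of related surface regulators; and Cd4, the gene of the other coreceptor. Each symbol matched 1 row, and all 10 passed the filter on low counts over all T cells.

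The samples came from B16F10, a mouse melanoma line that was grown as a tumour in C57BL/6J mice 6 to 8 weeks old. The groups were sgArid1a, a guide RNA against Arid1a, which encodes a DNA-binding subunit of a SWI/SNF chromatin remodelling complex, and sgScr, a scrambled guide, with 2 samples each. Which cells the guide was put into, and whether the samples of a group came from separate mice, the labels leave unsaid, so p-values measure how far these samples vary, and that variation may be technical. Cells had been sorted as CD45, CD3 and CD8 positive before droplet capture and 5-prime sequencing, so protein of the CD3 and CD8 genes was a condition of entry in both groups.

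Antigen receptors of T cells have no signalling tail of their own. The CD3 chains and the zeta chain carry that function, and Lck, held by the tail of CD4 or of CD8 alpha, phosphorylates them when a receptor meets its ligand. CD8 is found as an alpha-beta pair on conventional cytotoxic cells and as an alpha-alpha pair on some innate-like and activated cells. CD5 and CD6 sit near the receptor and mostly restrain its signal, and the CD5 level of a T cell is known to follow the strength of the signals it received in the thymus.

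Several of these genes are neighbours on the GRCm38 assembly. Cd8b1 and Cd8a lie on chromosome 6, on the same strand and 35932 bases apart. Cd3g and Cd3d lie on chromosome 9 and are transcribed away from each other, with 1354 bases between them, and Cd3e lies 11400 bases beyond Cd3d. Cd5 and Cd6 lie on chromosome 19, 50338 bases apart. The 250 bases before the start site (RefSeq, GRCm38.p6) are shown for the 4 chains whose change or share the results turn on most, Cd8a at chr6:71373177-71373426 (plus strand), Cd3g at chr9:44980432-44980681 (minus strand), its divergent neighbour Cd3d at chr9:44981536-44981785 (plus strand) and Cd247 at chr1:165788431-165788680 (plus strand). Capitals mark GGAA or its complement TTCC, the core that ETS factors recognise.
Cd8a: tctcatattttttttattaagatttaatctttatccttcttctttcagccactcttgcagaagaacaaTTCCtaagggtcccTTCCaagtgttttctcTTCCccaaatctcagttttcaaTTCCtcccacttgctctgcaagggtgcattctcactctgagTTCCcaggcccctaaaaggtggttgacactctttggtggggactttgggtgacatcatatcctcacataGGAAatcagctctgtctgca
Cd3g: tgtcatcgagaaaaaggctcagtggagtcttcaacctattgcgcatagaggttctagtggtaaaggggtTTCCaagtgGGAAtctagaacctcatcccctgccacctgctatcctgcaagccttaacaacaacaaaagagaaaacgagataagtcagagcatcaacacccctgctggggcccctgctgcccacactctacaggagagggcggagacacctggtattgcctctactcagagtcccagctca
Cd3d: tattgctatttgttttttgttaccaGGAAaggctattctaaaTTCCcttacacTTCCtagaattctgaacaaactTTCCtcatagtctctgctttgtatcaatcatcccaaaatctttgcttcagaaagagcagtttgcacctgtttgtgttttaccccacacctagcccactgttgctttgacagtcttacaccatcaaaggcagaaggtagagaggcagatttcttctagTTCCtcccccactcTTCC
Cd247: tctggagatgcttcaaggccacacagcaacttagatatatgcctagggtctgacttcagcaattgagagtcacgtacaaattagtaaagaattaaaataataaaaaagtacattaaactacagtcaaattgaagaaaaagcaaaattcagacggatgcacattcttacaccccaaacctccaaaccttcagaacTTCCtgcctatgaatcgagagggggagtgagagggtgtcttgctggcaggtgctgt
The core occurred 6 times before Cd8a, 2 times before Cd3g, 6 times before Cd3d and 1 time before Cd247, counting both strands. Of 32851 windows of this length before mouse genes, 93.4% held it, with a median of 3 matches, so its presence sets no window apart. The RUNX core TGTGGT was in none of the 4 windows and in 14.0% of all windows. The GATA core AGATAA was in the window of Cd3g only among these 4, and in 9.99% of all windows.

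After filtering, 38259 T cells remained, 10695 and 12771 in sgArid1a replicates 1 and 2, and 7636 and 7157 in sgScr replicates 1 and 2. Summed over T cells, the libraries held 39285383 and 81447081 UMIs (unique molecular identifiers, counted molecules) in sgArid1a and 35642152 and 32201336 UMIs in sgScr, and the median per T cell was 2407 and 4025 UMIs in sgArid1a and 3750 and 3597 UMIs in sgScr. Pairs of libraries shared 78 to 231 cell barcodes, at most 2.07% of the smaller. Arid1a itself had 74.2 and 72.6 UMIs per 1000000 UMIs (CPM) in sgArid1a, against 85.2 and 93.6 CPM in sgScr, a log2 fold change of -0.26 ± 0.06 (SE, adjusted p = 0.00425, edgeR). That call was lost without sgScr replicate 2 (adjusted p = 0.0954). Summed markers of CD4 T cells had 157 and 171 CPM in sgArid1a and 89.8 and 96.7 CPM in sgScr, those of natural killer cells 266 and 281 CPM in sgArid1a and 165 and 160 CPM in sgScr, and those of gamma-delta T cells 23.7 and 22.9 CPM in sgArid1a and 14.6 and 12.3 CPM in sgScr. Of the genes tested in these lists, 4 of 6, 4 of 6 and 3 of 5 were higher in sgArid1a and 1 of each was lower. Cd4 itself was left out of the sum and the count of the CD4 list. Among all genes tested, 28.0% were higher and 26.4% lower. Ncr1 and Klra8 of the natural killer list and Trdv4 and Sox13 of the gamma-delta list were under 1 CPM in every sample. The most abundant genes of the CD4 and natural killer lists were Tnfrsf4 and Prf1, which activated CD8 T cells also express. Dendritic cell markers had 114 and 113 CPM in sgArid1a and 65.4 and 77.5 CPM in sgScr (of 6 tested, 4 higher and 2 lower). Myeloid markers had 168 and 174 CPM in sgArid1a and 124 and 124 CPM in sgScr (of 7 tested, 4 higher). B cell markers had 117 and 127 CPM in sgArid1a and 156 and 155 CPM in sgScr (of 3 tested, 2 lower, edgeR). Pax5 was at 0 in every sample, and Csf1r, Adgre1, Itgam, C1qa, Flt3 and Xcr1 were under 1 CPM. Whether such cells take part in the differences that follow was not tested.

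Summed over all T cells, Cd8a, Cd3g and Cd5 were higher in sgArid1a and Cd8b1 and Cd247 were lower. Cd3e, Cd3d, Cd6, Lck and Cd4 did not pass the test. Calls were common in this comparison: of 12792 genes tested, 28.0% were called higher and 26.4% lower (54.4% together, edgeR, adjusted p under 0.05), so 5 called of 10 is a share near that of all genes. The groups did not overlap for 7 of the 10, against 76.0% of all genes. The median log2 fold change was 0.11 for the 10 genes and -0.02 for all genes tested.

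**Figure D1:**
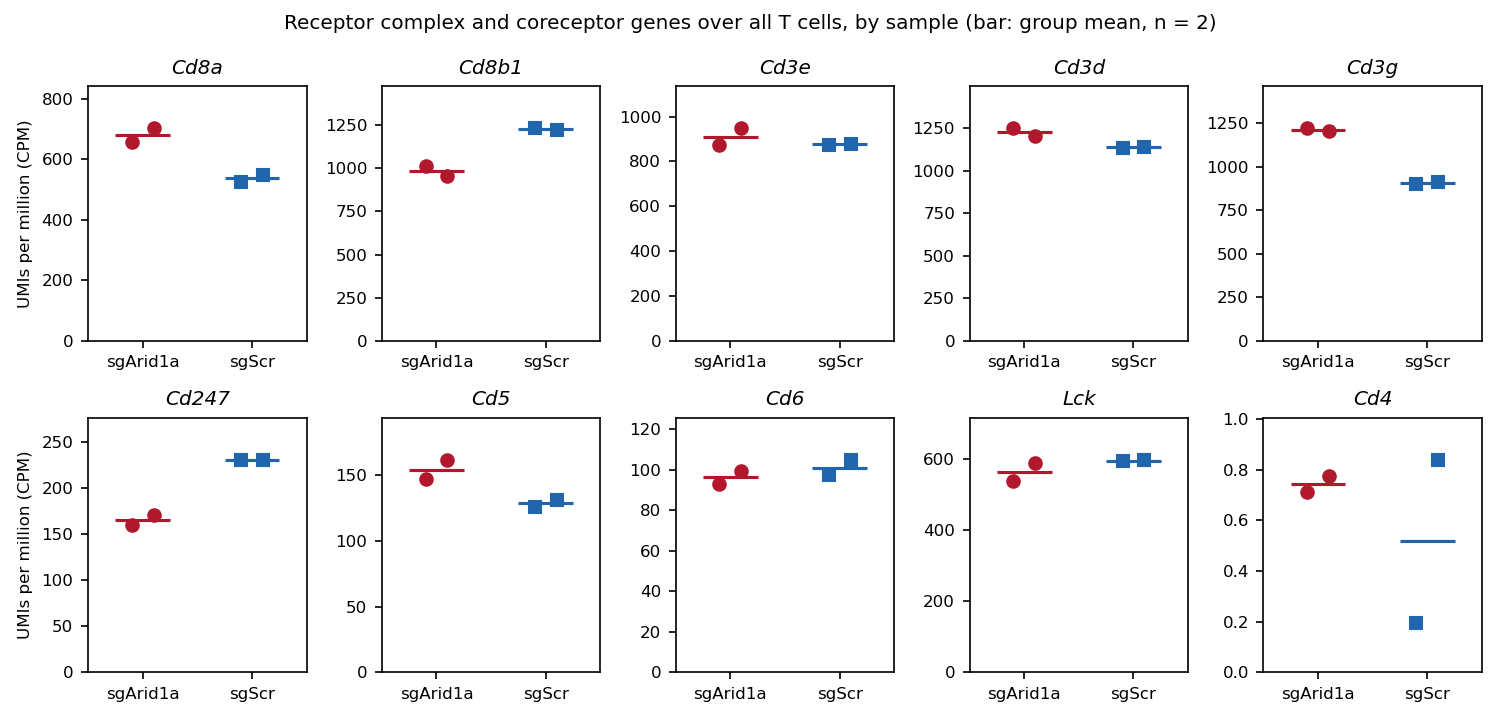
CPM of the 10 genes over all T cells in each of 4 samples (points), with sgArid1a left of sgScr and a bar at each group mean; every axis starts at 0. Cd8a, Cd3g and Cd5 sit higher and Cd8b1 and Cd247 lower in sgArid1a, while the sgScr samples of Cd4 lie at 0.20 and 0.84 CPM.

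The chains of the coreceptor moved in opposite directions. Cd8a had 658 and 702 CPM in sgArid1a, against 525 and 549 CPM in sgScr. Its log2 fold change was 0.37 ± 0.06 (adjusted p = 0.00033, edgeR), and both sgArid1a samples stood above both sgScr samples. Cd8b1 had 1012 and 955 CPM in sgArid1a, against 1230 and 1224 CPM in sgScr. Its log2 fold change was -0.29 ± 0.08 (adjusted p = 0.00528, edgeR). The Cd8a call held under all 16 alternatives (log2 0.34 to 0.46). The Cd8b1 call was lost without sgScr replicate 1 (adjusted p = 0.0866), without cycling-like cells (0.0714), without cells of the Trbv13-1 and Trbv20 receptors (0.0587), and at -0.17 when cells were thinned to 1500 UMIs (0.156).

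As a ratio within each library, Cd8b1 made up 60.6 and 57.6% of Cd8a plus Cd8b1 UMIs in sgArid1a, against 70.1 and 69.0% in sgScr. The 95% exact binomial intervals, which cover counting error only, were 60.2 to 60.95% and 57.4 to 57.9% in sgArid1a and 69.7 to 70.4% and 68.7 to 69.4% in sgScr. The means were 59.1 ± 2.09% in sgArid1a and 69.6 ± 0.73% in sgScr (SD, n = 2 each), a difference of 10.5 percentage points, while the samples of a group differed by 2.96 points in sgArid1a and 1.03 points in sgScr. An exact two-sided permutation test gave p = 0.333, the smallest that 2 against 2 samples allow. The same holds for each of the 6 shares compared below, so they are read by whether the groups overlap. A share of this kind compares samples and cell states; it is no measure of which chain is more abundant.

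In the signalling chains, Cd3g and Cd247 changed and Cd3e and Cd3d did not pass the test. Cd3g, the gamma chain, had 1220 and 1208 CPM in sgArid1a, against 903 and 915 CPM in sgScr, a log2 fold change of 0.45 ± 0.07 (adjusted p = 0.00013, edgeR). Cd247, the zeta chain, had 160 and 171 CPM in sgArid1a, against 231 and 230 CPM in sgScr, a log2 fold change of -0.45 ± 0.06 (adjusted p = 2.9e-05, edgeR). Both calls held under all 16 alternatives. Without cycling-like cells Cd247 was at -0.31, without the Trbv13-1 and Trbv20 cells at -0.33, and in cells thinned to 1500 UMIs at -0.29.

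Cd3e, the epsilon chain that pairs with gamma or delta, had 874 and 947 CPM in sgArid1a, against 875 and 879 CPM in sgScr (log2 0.08, adjusted p = 0.322, edgeR). Cd3d, the delta chain, had 1247 and 1204 CPM in sgArid1a, against 1131 and 1141 CPM in sgScr (log2 0.14, adjusted p = 0.121, edgeR). Cd3d was called higher without sgArid1a replicate 2 (adjusted p = 0.00965), without cycling-like cells (0.0371) and in thinned cells (0.0455). Of the 4 chains' summed UMIs, Cd247 made up 4.57 and 4.84% in sgArid1a, against 7.35 and 7.28% in sgScr. Cd3g made up 34.8 and 34.2% in sgArid1a, against 28.8 and 28.9% in sgScr. The shares of Cd3e (24.96 and 26.8% in sgArid1a, 27.9 and 27.8% in sgScr) and of Cd3d (35.6 and 34.1% in sgArid1a, 36.0 and 36.1% in sgScr) lay lower in sgArid1a without overlap, by 1.92 and 1.17 points. Within clusters the Cd247 share was lower without overlap in 13 of 14 and the Cd3e share in 11 of 14. The Cd3g share was higher without overlap in 11 of 14 and the Cd3d share in 7. The 4 shares are parts of 1 sum, so a rise of 1 chain lowers the shares of the others. In CPM, Cd247 itself was lower without overlap in 7 of 14 clusters and was called lower in 2 of 13 tested (edgeR). Over all T cells the groups of 76.0% of genes did not overlap. No such share was taken within clusters, so these counts of clusters have no base rate beside them.

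Of the 3 constant genes of the antigen-binding chains, Trac and Trbc1 were higher in sgArid1a over all T cells and Trbc2 did not pass the test. Trac, the constant part of the alpha chain, had 263 and 287 CPM in sgArid1a, against 227 and 248 CPM in sgScr (log2 0.24, adjusted p = 0.00564, edgeR); the call was lost without sgScr replicate 1 (adjusted p = 0.167). In exhausted-like cells alone Trac was lower in sgArid1a (log2 -0.39, adjusted p = 0.0024, edgeR), opposite to its direction over all T cells. Trbc1, a constant part of the beta chain, had 144 and 167 CPM in sgArid1a, against 121 and 120 CPM in sgScr (log2 0.40, adjusted p = 0.00021, edgeR). Trbc2 had 319 and 415 CPM in sgArid1a, against 332 and 313 CPM in sgScr (log2 0.21, adjusted p = 0.0612, edgeR). In exhausted-like cells alone Trbc1 was higher in sgArid1a (log2 0.33, adjusted p = 0.0368, edgeR), so Trac and Trbc1 were called in opposite directions there. Trbc2 was at -0.07 in that state (adjusted p = 0.701, edgeR). Trbc1 and Trbc2 are near-identical copies, and no source used here gives how reads were divided between them, so their split is uncertain; Trbc2 was called under 8 of its 16 alternatives.

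Among the regulators and the kinase, only Cd5 passed the test. Cd5 had 147 and 162 CPM in sgArid1a, against 126 and 131 CPM in sgScr, a log2 fold change of 0.29 ± 0.06 (adjusted p = 0.001, edgeR). Without cells of the Trbv13-1 and Trbv20 receptors it was at 0.14 and not called (adjusted p = 0.0805, edgeR). Cd6 had 93.1 and 99.5 CPM in sgArid1a, against 97.2 and 105 CPM in sgScr (log2 -0.04, adjusted p = 0.596, edgeR). Lck had 538 and 588 CPM in sgArid1a, against 594 and 597 CPM in sgScr (log2 -0.05, adjusted p = 0.508, edgeR). Within the pair, Cd6 made up 38.7 and 38.1% of Cd5 plus Cd6 UMIs in sgArid1a, against 43.5 and 44.4% in sgScr.

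Cd4 was close to absent. It had 28 and 63 UMIs in sgArid1a (0.71 and 0.77 CPM), against 7 and 27 UMIs in sgScr (0.20 and 0.84 CPM), and the log2 fold change of 0.60 ± 0.42 did not pass the test (adjusted p = 0.246, edgeR). The value hung on the sgScr sample kept: it was -0.12 without sgScr replicate 1 and 1.91, with an adjusted p of 0.00275, without sgScr replicate 2. Of 38259 T cells 88 held a Cd4 UMI and 26 held at least 2. Of those 26, 24 also held Cd8a or Cd8b1 and 8 held at least 2 Trbv segments. By sample, 6.73 to 13.2% of all T cells held 2 or more segments at 2 or more UMIs each. Whether the 26 cells were deeper than others was not tested.

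Cells were grouped into 14 T cell clusters without using the 10 genes, and named only from marker lists, so names end in "-like". The naive/central memory-like class took in clusters 1, 2, 5 and 9; cluster 9 came to 60.8% from sgArid1a replicate 1, and the interferon-stimulated-like cluster to 52.2% from sgArid1a replicate 2. Clusters 3, 7 and 13 stayed unnamed. Cluster 3 was led by Id3, Gbp2 and Ms4a4c, cluster 7 by Ramp3, Car2 and Fosl2, and cluster 13, whose median depth was 0.361 of that of its own samples, by Kit, Penk and Tnfsf11. The memory-like cluster raised 4 of its 8 markers and was led by Gzma, Ifitm1 and Ccr2, so its name rests on fewer markers. The exhausted-like cluster raised all 11 of its markers, with the granzyme genes Gzmd, Gzmg and Gzme in front. The Ly49-positive innate-like cluster raised all 8, led by Klra7, Klra6 and Klra1, receptors shared with natural killer cells.

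Across these states the 10 genes each had their own order, given here as the mean CPM of the 4 samples. Cd8b1 was lowest in Ly49-positive innate-like cells (362 CPM) and highest in memory-like cells (1633 CPM), a ratio of 4.51, and both ends were the same in 4 of 4 libraries. Cd8a ran from 297 CPM in naive/central memory-like cluster 1 to 916 CPM in cluster 13, with each end the same in 2 of 4 libraries; in both sgScr samples Ly49-positive innate-like cells were lower than cluster 1. Next to cluster 13, early activated-like (795 to 954 CPM) and exhausted-like cells (857 to 883 CPM) had ranges over the 4 samples that overlapped with each other and with it. Cd3e and Cd3g were highest in exhausted-like cells in 4 of 4 libraries, at 1253 and 1728 CPM. Cd3d and Lck were highest in memory-like cells in 4 of 4 libraries, at 1425 and 824 CPM.

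The lowest state of Cd247 was not the same in the groups, while the highest was less clear. In both sgArid1a samples it was lowest in cycling-like cells (119 and 130 CPM) and highest in naive/central memory-like cluster 2 (283 and 270.3 CPM). In both sgScr samples it was lowest in cluster 3 (162 and 161 CPM) and highest in naive/central memory-like cluster 9 (276 and 312 CPM). Some of these sgScr ends were near ties. In sgScr replicate 1 cluster 2 (276.1 CPM) and exhausted-like cells (275.6 CPM) were level with cluster 9 (276.4 CPM, on 130 UMIs). In sgScr replicate 2 Ly49-positive innate-like cells (161.6 CPM) were level with cluster 3. Cd5 was lowest in naive/central memory-like cluster 1 (59.7 CPM) and Cd6 in cluster 9 (56.4 CPM), in 4 and 3 of 4 libraries. Both were highest in the shallow cluster 13 (331 CPM for Cd5 and 319 CPM for Cd6) in 4 of 4 libraries, on 28 to 88 UMIs per sample. Next came memory-like cells for Cd5 (182 CPM) and cluster 7 for Cd6 (146 CPM). In Ly49-positive innate-like cells Cd8a had 333 and 384 CPM in sgArid1a, against 271 and 283 CPM in sgScr, and Cd8b1 had 362 and 354 CPM in sgArid1a, against 365 and 370 CPM in sgScr. Cd3d there had 1317 and 1302 CPM in sgArid1a, against 1161 and 1231 CPM in sgScr, which placed it in the upper part of its own order over states.

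The Cd8b1 share followed the state as well as the group. In naive/central memory-like cluster 2 it was 75.7 and 73.6% in sgArid1a, against 77.1 and 76.7% in sgScr, the highest share in sgArid1a replicate 1 and sgScr replicate 1. The stressed-like cluster was higher in sgArid1a replicate 2 (75.0%), and cluster 9 in sgScr replicate 2 (76.85%). In memory-like cells it was 68.2 and 65.0% in sgArid1a, against 72.3 and 71.7% in sgScr. In exhausted-like cells it was 54.7 and 53.0% in sgArid1a, against 59.3 and 57.6% in sgScr. In Ly49-positive innate-like cells it was 52.1 and 48.0% in sgArid1a, against 57.4 and 56.6% in sgScr. In 11 of 14 clusters both sgArid1a samples lay below both sgScr samples; in the interferon-stimulated-like cluster, the stressed-like cluster and cluster 13 they overlapped. Differences within clusters ran from -6.95 to 0.62 points, each smaller than the 10.5 points over all T cells. How often shares of other gene pairs part without overlap within clusters was not counted, so the 11 of 14 has no base rate beside it.

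**Figure D2:**
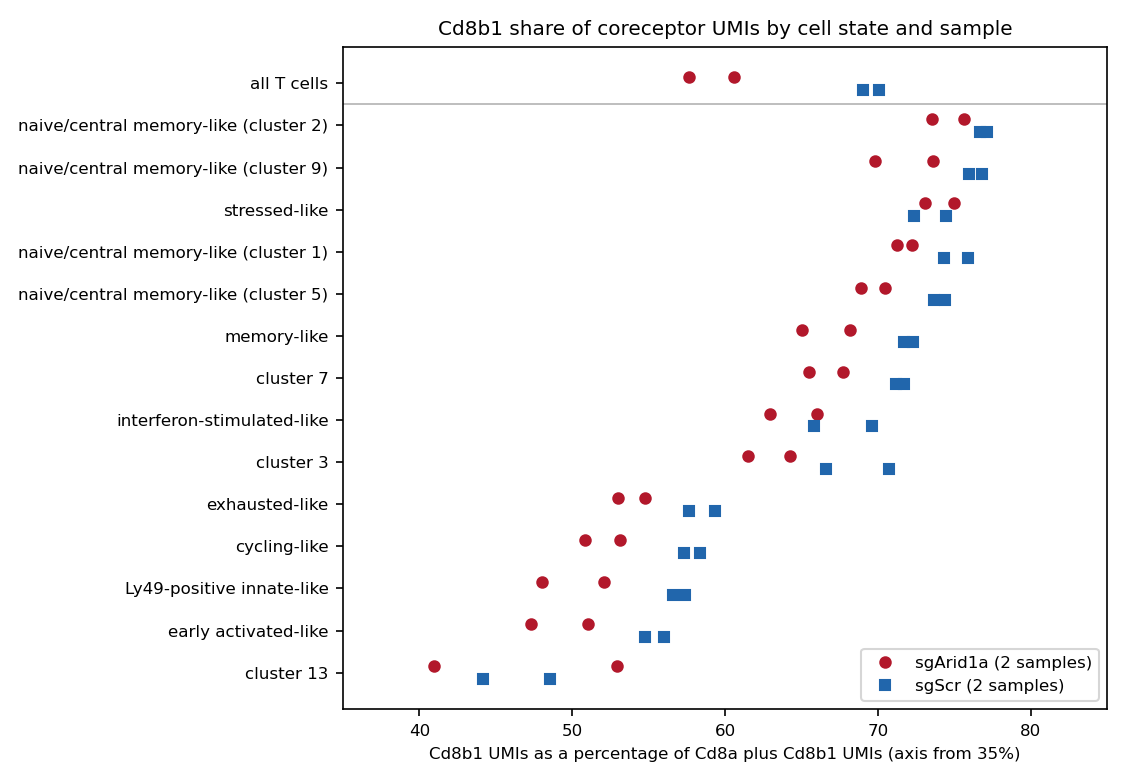
Cd8b1 as a percentage of Cd8a plus Cd8b1 UMIs in 14 T cell clusters and over all T cells, 1 point per sample; the axis starts at 35%. sgArid1a points lie left of sgScr points without overlap in 11 of 14 clusters, and clusters run down the page by their mean share, from naive/central memory-like cluster 2 to cluster 13.

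Within states, each tested on sums of that state alone, 9 gene-and-state pairs of 117 were called higher in sgArid1a and 3 lower (13 clusters, 9 genes, edgeR). Cd8a rose in memory-like cells, where it had 750 and 830 CPM in sgArid1a, against 654 and 661 CPM in sgScr (log2 0.34, adjusted p = 0.0141, edgeR; 2.73% of all genes were called there). It rose in Ly49-positive innate-like cells as well (log2 0.43, adjusted p = 0.0173, edgeR; 2.93% of genes called). Cd3g rose in the same pair of states (log2 0.30 and 0.36) and in naive/central memory-like cluster 5 (log2 0.36; 1.14% of genes called). Each of these 5 calls was lost without sgScr replicate 1 or without sgScr replicate 2, with adjusted p from 0.168 to 0.594 and log2 values of 0.26 to 0.46. Cd8b1 was called in 0 of the 13 clusters by edgeR, with log2 fold changes from -0.24 to 0.33, and had an unadjusted p under 0.05 in 2 of them. Cd3d, also called in 0 by edgeR, had an unadjusted p under 0.05 in 7. That count was 10 for Cd3g, 6 for Cd8a, 5 for Cd6, 2 each for Cd247, Cd5 and Lck, and 0 for Cd3e. No share of all genes was taken at the unadjusted threshold, so these counts have no base rate beside them. In the clusters with no member called, edgeR's calls over all genes were 1.43% in naive/central memory-like cluster 2, 0.182% in cluster 9, 0.756% in cluster 3, 1.47% in cluster 7, 0.201% in interferon-stimulated-like cells, 1.94% in early activated-like cells and 8.24% in cluster 13.

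In exhausted-like and cycling-like cells Cd247 fell and Cd5 and Cd6 rose. In exhausted-like cells Cd247 had 142 and 156 CPM in sgArid1a, against 276 and 270 CPM in sgScr, a log2 fold change of -0.81 ± 0.08 (adjusted p = 3.6e-06, edgeR; 10.8% of genes called). Cd5 there had 169 and 177 CPM in sgArid1a, against 118 and 135 CPM in sgScr (log2 0.51, adjusted p = 0.00091, edgeR). Cd6 had 111 and 116 CPM in sgArid1a, against 79.8 and 88.1 CPM in sgScr (log2 0.50, adjusted p = 0.0018, edgeR). The groups did not overlap for any of the 3. Nor did they overlap there for Cd8b1, Cd3e, Cd3g and Lck, which were not called. Over all T cells 76.0% of genes did not overlap, and no such share was taken for this state.

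Cycling-like cells showed the same 3 genes. Cd247 had 119 and 130 CPM in sgArid1a, against 220 and 214 CPM in sgScr (log2 -0.72, adjusted p = 2.2e-05, edgeR; 5.59% of genes called). Cd5 had 161 and 179 CPM in sgArid1a, against 124 and 121 CPM in sgScr (log2 0.55, adjusted p = 0.00076, edgeR). Cd6 had 88.6 and 94.2 CPM in sgArid1a, against 68.4 and 79.4 CPM in sgScr (log2 0.39, adjusted p = 0.0219, edgeR), and lost its call without sgScr replicate 1 (adjusted p = 0.197).

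In memory-like cells, by contrast, Cd247 had 210 and 225 CPM in sgArid1a, against 210 and 228 CPM in sgScr, and the groups overlapped (log2 0.07, adjusted p = 0.729, edgeR). Cd6 went the other way in naive/central memory-like cluster 1, where it had 54.8 and 56.3 CPM in sgArid1a, against 79.1 and 76.7 CPM in sgScr (log2 -0.42, adjusted p = 0.0352, edgeR; 2.92% of genes called). That call was lost without sgArid1a replicate 2 and without either sgScr sample (adjusted p 0.255 to 0.524), and with the replicate block (0.0587). In the whole naive/central memory-like class Cd6 was at -0.26 and Cd3g at 0.25 (adjusted p = 0.0374 and 0.0434, edgeR; 6.23% of genes called), both lost without either sgScr sample. Cluster 9 held the most cells of that class in sgArid1a replicate 1, cluster 1 in sgArid1a replicate 2, and cluster 2 in both sgScr samples.

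**Figure D3:**
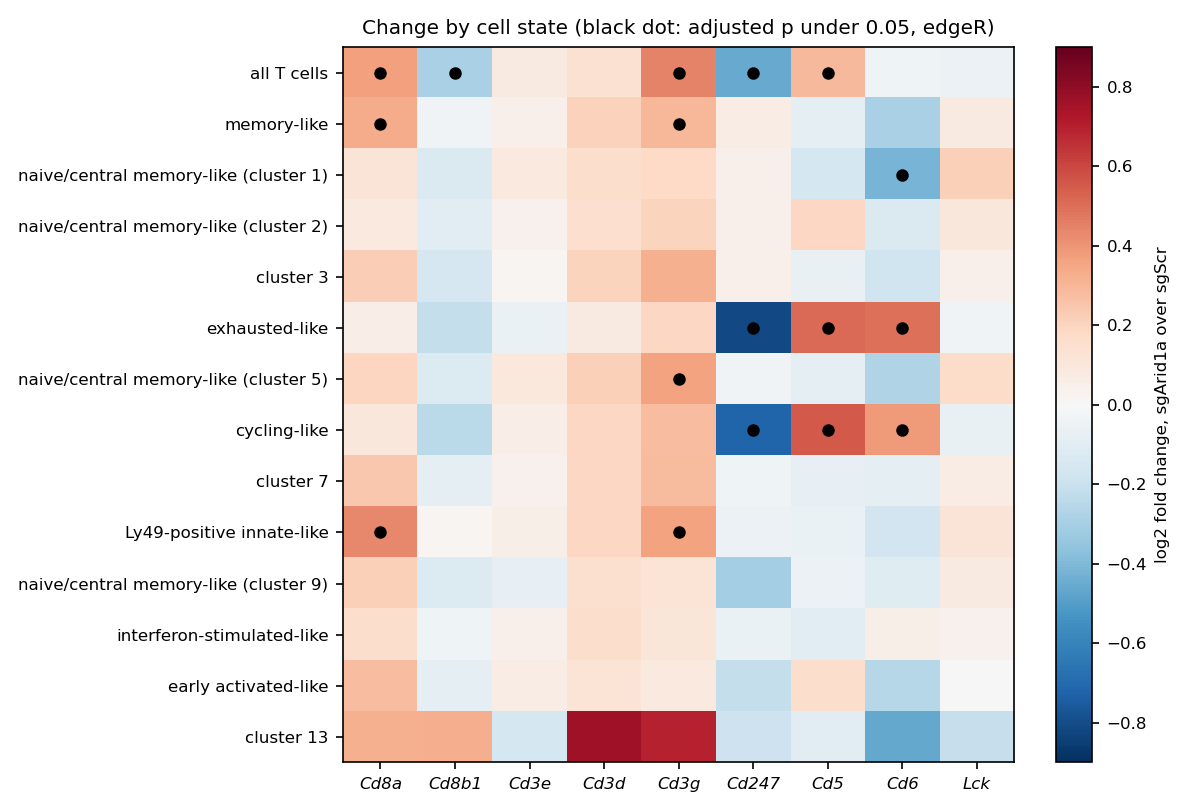
Log2 fold change of sgArid1a over sgScr for 9 genes (columns) over all T cells and in 13 tested clusters (rows), red for higher and blue for lower in sgArid1a, with a black dot where edgeR's adjusted p was under 0.05. Cd247 is blue and dotted in exhausted-like (-0.81) and cycling-like cells (-0.72) and near 0 in memory-like cells (0.07), and Cd8b1 is dotted only over all T cells.

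**Figure D4:**
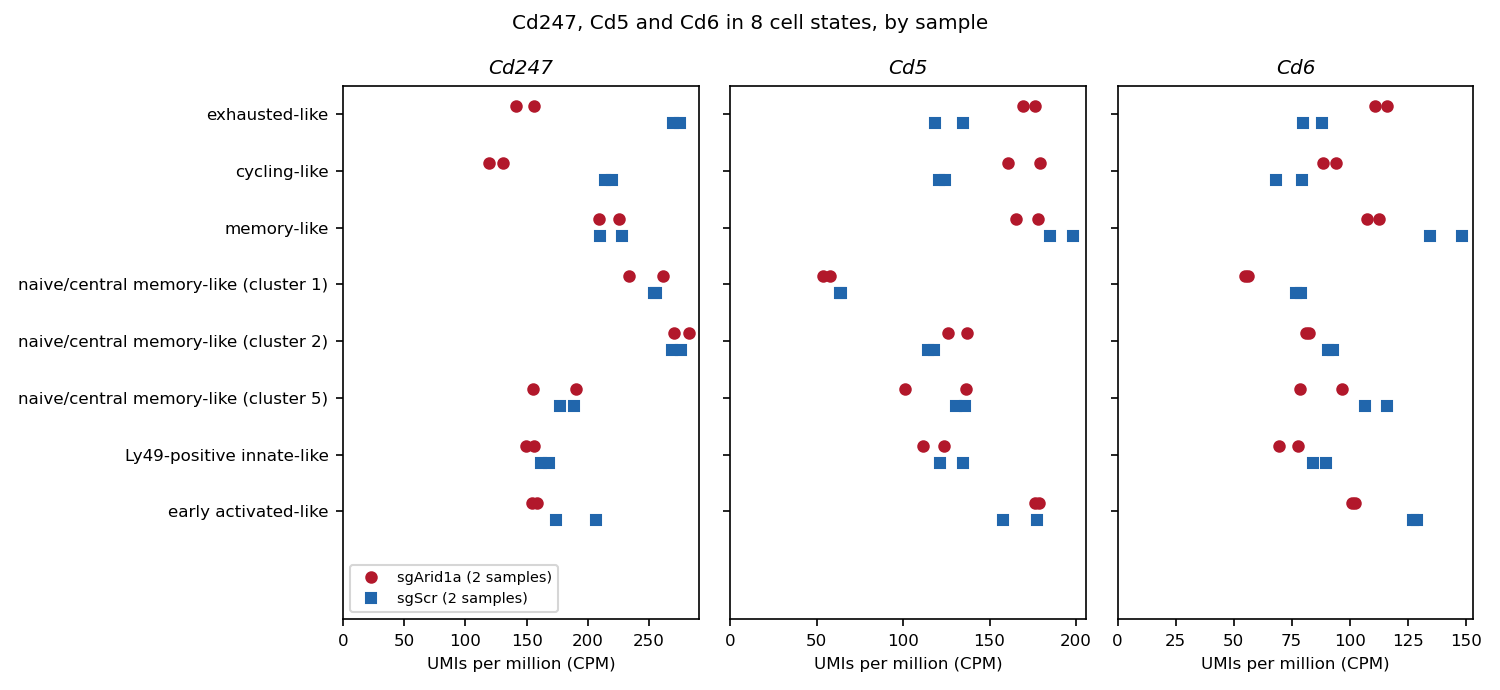
CPM of Cd247, Cd5 and Cd6 in 8 named clusters, 1 point per sample, with the sgArid1a points drawn above the sgScr points of each state and axes from 0. In exhausted-like cells Cd247 lies at 142 and 156 CPM in sgArid1a, against 276 and 270 CPM in sgScr, and Cd5 and Cd6 lie higher in sgArid1a; in memory-like cells the Cd247 points of the groups overlap.

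The difference of the group effect between states was tested itself, as an interaction with the sample as a block. Against the naive/central memory-like class, the Cd247 effect in exhausted-like cells was lower by 0.76 ± 0.06 on the log2 scale (adjusted p = 1.2e-31, edgeR; 7.85% of genes were called in this comparison). The Cd5 effect was higher by 0.54 and the Cd6 effect by 0.77 (adjusted p = 6.5e-10 and 2.2e-15, edgeR). Lck and Cd3d effects were lower by smaller amounts, with differences of -0.18 and -0.12 (adjusted p = 0.0014 and 0.0113, edgeR). In cycling-like cells the Cd247 difference was -0.68, that of Cd5 0.59, that of Cd6 0.66 and that of Lck -0.23 (adjusted p = 1.7e-07, 3.3e-05, 7.5e-05 and 0.0144, edgeR; 2.89% of genes called). The Cd8a effect was larger in memory-like cells by 0.19 (adjusted p = 0.00015, edgeR; 2.23% of genes called) and in Ly49-positive innate-like cells by 0.30 (adjusted p = 0.026, edgeR; 0.813% of genes called). These fits hold 8 sums and 4 sample terms, so their p-values lean on the spread shared across genes.

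To hold the makeup of states equal, the mean level per state was weighted by 1 common mix, the mean share of cells in each state over the 4 samples. Cd8a then had 563 and 608 CPM in sgArid1a, against 524 and 536 CPM in sgScr, and the log2 difference was 0.14. Cd8b1 had 1134 and 1096 CPM in sgArid1a, against 1244 and 1226 CPM in sgScr, a difference of -0.15. Cd3g was at 0.20 and Cd247 at -0.15. The groups of these 4 genes did not overlap, at differences smaller than over all T cells. The mix weighted states by cells, whereas sums over all T cells weight them by UMIs. Cycling-like cells were 1331 of 12771 T cells in sgArid1a replicate 2 but held 26323512 of its 81447081 UMIs. The sizes are therefore not like for like. The lack of overlap did not single these 4 genes out. The groups of Cd3d (0.12), of Cd6 and of Cd4 (0.73 and 0.93 CPM in sgArid1a, 0.26 and 0.64 CPM in sgScr) did not overlap either. No share over all genes was taken at the common mix. Cd5 had 130 and 138 CPM in sgArid1a, against 131 and 137 CPM in sgScr, so at a common mix its groups overlapped. Cd6, which did not pass the test over all T cells, was at -0.20 with 89.7 and 93.4 CPM in sgArid1a, against 102 and 109 CPM in sgScr. The exact permutation p for any of these is at least 0.333.

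Receptor segments gave a further view of Cd247, Cd5 and Cd6 in exhausted-like and cycling-like cells. Cells of 1 clone carry the same Trbv segment, which encodes a variable part of the beta chain, so cells of 1 segment can share their origin. Cells with Trbv13-1 made up 9.64 and 10.6% of T cells in sgArid1a, against 6.00 and 6.11% in sgScr, and those with Trbv20 made up 5.69 and 6.19% in sgArid1a, against 2.095 and 1.93% in sgScr. Without the cells of both segments, Cd247 was at -0.74 in exhausted-like and -0.60 in cycling-like cells (adjusted p = 5.1e-06 and 0.00052, edgeR). Cd6 was at 0.40 in exhausted-like cells (adjusted p = 0.02, edgeR) and at 0.14 in cycling-like cells (adjusted p = 0.51, edgeR). Cd5 was at 0.26 and 0.17 (adjusted p = 0.103 and 0.354, edgeR), and neither value was called.

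Of the segments with at least 50 such cells in each sgArid1a sample, or at least 25 in each sgScr sample, 6 were usable in sgArid1a and 7 in sgScr, and Trbv13-1 and Trbv16 in both groups. Trbv13-1 cells had 125 and 135 CPM of Cd247 in sgArid1a, against 247 and 247 CPM in sgScr. Trbv16 cells had 134 and 140 CPM of Cd247 in sgArid1a, against 231 and 233 CPM in sgScr. Cd5 parted from Cd247 here: Trbv13-1 cells had 212 and 224 CPM of Cd5 in sgArid1a, against 113 and 109 CPM in sgScr, whereas Trbv16 cells had 141 and 144 CPM in sgArid1a, against 142 and 145 CPM in sgScr. Segments differed from each other within a group as well. In sgArid1a, Trbv2 cells had 234 and 219 CPM of Cd247 with 70.4 and 59.3 CPM of Cd5, and Trbv3 cells had 88.7 and 113 CPM of Cd247 with 77.2 and 112 CPM of Cd5. Segment means of Cd247 ran from 101 to 226 CPM in sgArid1a and from 164 to 279 CPM in sgScr. These are values with no test, and cells of a segment are not replicates.

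**Figure D5:**
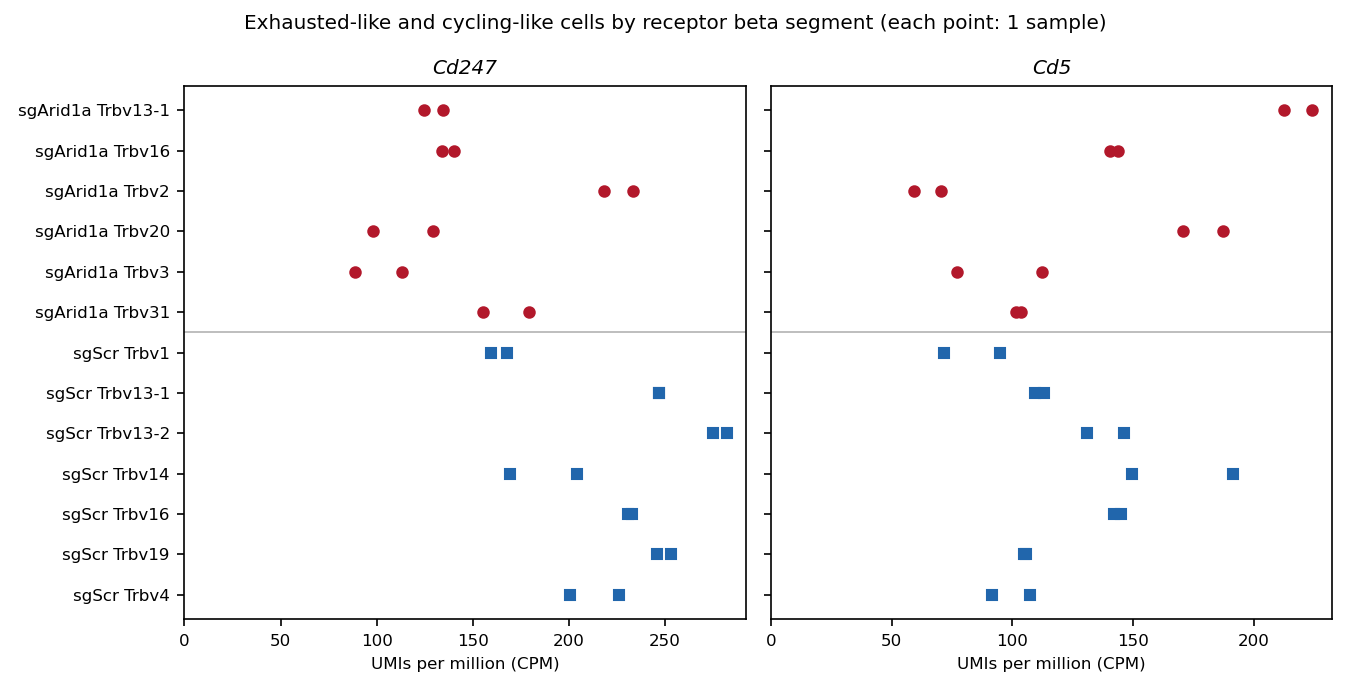
CPM of Cd247 and Cd5 in exhausted-like plus cycling-like cells by Trbv segment, 1 point per sample, with 6 sgArid1a rows above 7 sgScr rows and axes from 0. For Trbv13-1 and Trbv16, present in both groups, Cd247 lies lower in sgArid1a (125 and 135 CPM, and 134 and 140 CPM) than in sgScr (247 and 247 CPM, and 231 and 233 CPM), while Cd5 is higher in sgArid1a for Trbv13-1 only.

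Counted per cell at an equal depth of 1500 UMIs, 58.3 ± 1.13% of sgArid1a and 47.8 ± 0.35% of sgScr cells held a Cd8a UMI, and 74.1 ± 0.91% of sgArid1a and 79.3 ± 0.21% of sgScr cells held a Cd8b1 UMI (SD, n = 2 each). Cells with Cd8a and no Cd8b1 were 13.1% in sgArid1a and 8.16% in sgScr, and cells with Cd8b1 and no Cd8a were 28.9% in sgArid1a and 39.7% in sgScr. A Cd3g UMI was held by 77.2% of sgArid1a and 67.2% of sgScr cells, and a Cd247 UMI by 24.5% of sgArid1a and 29.8% of sgScr cells. Thinning left out 1767 and 331 shallower cells in sgArid1a and 191 and 235 in sgScr; unthinned, Cd8a was held by 70.4 and 82.5% of sgArid1a and 73.5 and 72.4% of sgScr cells, and the groups overlapped. In a cluster of B cell and MHC class II genes, 24 of 52 cells at this depth held Cd8a and 38 held Cd8b1 (46.2 and 73.1%, median depth 1500 UMIs in both sets). Those cells had passed the same CD3 and CD8 gate, so no population that should lack these genes was at hand, and free RNA as a source of single UMIs was not tested.

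By likeness of pattern over 56 points (14 clusters by 4 samples, log2 CPM centred within each sample, 4957 genes), the genes closest to Cd8a were Tspan31 (r = 0.88), Agpat3 (0.87) and Nrp1 (0.85). Closest to Cd8b1 was Lat (r = 0.88), a membrane adaptor that receptor-linked kinases phosphorylate, well ahead of Tesc (0.57) and Mpnd (0.53). Closest to Cd247 were Atp6v1d (0.62), Smap2 (0.60) and Tmem59 (0.59). These points share libraries and clusters, so the correlations are descriptions.

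Over the receptor pathway lists, which run from receptor constant chains and kinases to accessory surface genes and transcription factors, more genes fell than rose. The lists were drawn up with earlier results of these data known. Of 77 pathway genes 76 were tested over all T cells, 14 were higher and 34 lower in sgArid1a, against 28.0 and 26.4% of all genes, and their median log2 fold change was -0.12. Leaving out sgScr replicate 1 brought the count of higher genes to 7. Of the kinases, 6 of 8 fell and 2 did not pass the test. Txk had 68.4 and 66.0 CPM in sgArid1a, against 130 and 125 CPM in sgScr (log2 -0.90, adjusted p = 2e-07, edgeR), and Tec, of the same family, was at -0.95 (adjusted p = 2.8e-07, edgeR). Of the adaptors and effectors, 14 of 22 fell and 2 rose. Grap2, which links Lat to the scaffold Lcp2, was at -0.76, and Plcg1, the phospholipase recruited by Lat, at -0.59; Sh2d2a, an adaptor that binds Lck, was at 0.65 with 455 and 476 CPM in sgArid1a, against 299 and 308 CPM in sgScr, and Unc119, which handles lipid-tailed kinases such as Lck, at 0.75.

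Among 20 brakes of the signal, 7 rose and 5 fell. Of all genes tested 28.0% were called higher and 26.4% lower, so these counts lie near the general share. Ptpn6, the phosphatase SHP-1, had 171 and 190 CPM in sgArid1a, against 113 and 116 CPM in sgScr (log2 0.68, adjusted p = 1e-06, edgeR). Cish, a suppressor of cytokine and receptor signals, was at 0.75. Dgka, which removes the messenger diacylglycerol, was at -0.89 with 97.9 and 104 CPM in sgArid1a, against 189 and 193 CPM in sgScr. Pag1, the membrane anchor of the Lck-restraining kinase Csk, was at -0.56. The phosphatase gene Ptprc (CD45), which acts on Lck, was at -0.30 and its partner Ptprcap at 0.27 (adjusted p = 0.00827 and 0.00475, edgeR). Ptprc lost its call without sgScr replicate 2, without cycling-like cells, without the Trbv13-1 and Trbv20 cells and in thinned cells, and Ptprcap without either sgScr sample. Within exhausted-like cells alone, Ptpn6 (log2 1.05), Dgka (-0.44), Grap2 (-0.66) and Plcg1 (-0.41) were called by edgeR in the same direction (adjusted p = 4e-07, 0.0121, 0.0012 and 0.0208). Of all genes, 10.8% were called in that state. These genes were picked by their p over all T cells, sums that include exhausted-like cells, so a shared direction is partly built in. The other 8 genes named from the kinases, adaptors, brakes and the phosphatase pair were not called there. Txk was at -0.30, Tec at -0.42, Sh2d2a at -0.06, Unc119 at 0.03, Cish at 0.09, Pag1 at -0.10, Ptprc at -0.24 and Ptprcap at -0.06, with adjusted p from 0.0666 to 0.890 (edgeR).

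Of 9 accessory surface genes, Cd48 rose (log2 0.24), Cd7 fell (-0.46) and 7 did not pass the test (all genes: 28.0% higher, 26.4% lower). Cd48 lost its call without either sgScr sample, and Cd7 without cycling-like cells, without the Trbv13-1 and Trbv20 cells, and in thinned cells (-0.10). In exhausted-like cells alone Cd7 fell (log2 -1.07, adjusted p = 4e-07, edgeR) and Cd48 was at 0.05 (adjusted p = 0.755, edgeR). Of 12 transcription factors that act on coreceptor or CD3 genes, 7 fell and 1 rose, beside 26.4 and 28.0% of all genes. Satb1, which takes part in the choice between CD4 and CD8 in the thymus, had 105 and 107 CPM in sgArid1a, against 214 and 218 CPM in sgScr (log2 -1.003, adjusted p = 3.5e-08, edgeR). Ets1, of the ETS family, had 206 and 206 CPM in sgArid1a, against 333 and 343 CPM in sgScr (log2 -0.69, adjusted p = 1.1e-06, edgeR). In exhausted-like cells alone Satb1 was at -0.07 (adjusted p = 0.838, edgeR) and Ets1 at -0.47 (adjusted p = 0.00077, edgeR).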

How the data were processed

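Per the labels' protocols, tumours were digested and cleared of red cells, and viable T cells sorted on CD45, CD3 and CD8 went into 5-prime 10x libraries. The authors deposited raw UMI counts per gene and cell for 4 samples, with no normalization. The file headers name Cell Ranger 6.0.1, and the submitters' processing notes name Cell Ranger 3.0.2, Seurat and mm10; which applies could not be settled, and removal of doublets or free RNA is not stated in them. Group and replicate come from sample titles.

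Of 39473 barcodes, 38316 passed a minimum of 500 genes and a maximum of 10% mitochondrial UMIs. Cells were scaled to 10000 counts, and 2000 variable genes without the 10 members were clustered with scanpy 1.11.5 and leidenalg 0.10.2 (30 components, 15 neighbours, resolution 0.8). A name needed at least 3 raised markers of its list and a marker of that list among the cluster's 10 leading genes. Where several lists qualified, the list with most markers among the leading genes gave the name. A cluster of 57 B cell and MHC class II cells was left out. No doublet caller was used; removal of cells in which 2 or more Trbv segments each had 2 or more UMIs (6.73 and 13.2% of sgArid1a, 11.1 and 10.6% of sgScr T cells) was an alternative.

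Summed counts of each sample, over all T cells or over a cluster of 50 or more cells per sample, entered edgeR 4.0.16 (TMM, filterByExpr, quasi-likelihood test, Benjamini-Hochberg adjustment over all genes of the fit) in R 4.3.3; called means an adjusted p under 0.05. CPM are per 1000000 UMIs of the cells summed, before TMM. Levels, shares and the common mix took clusters of 20 or more cells per sample. Differences at the common mix are on the log2(CPM + 1) scale, so those of low genes are understated. Cell shares in the 1500-UMI set have Wilson intervals in the underlying tables and UMI shares exact ones. The edgeR step was tested on simulated data. DESeq2 1.42.0 was an alternative. Gene coordinates are from GENCODE M21 (GRCm38), matched by identifier for 32235 of 32285 rows; RefSeq windows were found for 7 of 10 members.

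Members, lists, tests and alternatives were chosen with earlier results of these data known. Named genes are the members, Arid1a, the 3 constant chains, of each pathway list up to 2 genes called higher and 2 called lower with the smallest p at a mean of at least 20 CPM, the 3 genes most like Cd8a, Cd8b1 and Cd247, and the leading 3 genes of clusters. The values by receptor segment, the tests within exhausted-like and cycling-like cells without Trbv13-1 and Trbv20 cells, the interactions with exhausted-like, cycling-like and Ly49-positive cells, the crossed pairing and leaving out clusters 9, 10 and 13 were added after the values were seen.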

Additional observations from a re-analysis of the deposited data

Results flagged for a closer look

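The effect of sgArid1a over sgScr differed between cell states for 12 gene-and-state pairs, each by a test of the interaction in which every sample had its own term (edgeR, adjusted p under 0.05) and each against the naive/central memory-like class. In exhausted-like cells the log2 effect differed by -0.76 for Cd247, 0.54 for Cd5, 0.77 for Cd6, -0.18 for Lck and -0.12 for Cd3d. In cycling-like cells it differed by -0.68 for Cd247, 0.59 for Cd5, 0.66 for Cd6 and -0.23 for Lck. In memory-like cells it differed by 0.19 for Cd8a and 0.10 for Cd8b1, and in Ly49-positive innate-like cells by 0.30 for Cd8a. Exhausted-like and cycling-like cells together held 620 and 822 Trbv13-1 cells in sgArid1a, against 64 and 50 in sgScr. These states were also larger in sgArid1a. Exhausted-like cells numbered 1198 and 1452 in sgArid1a and 371 and 377 in sgScr. Cycling-like cells numbered 1049 and 1331 in sgArid1a and 239 and 223 in sgScr. The within-state values of Cd247, Cd5 and Cd6 without the Trbv13-1 and Trbv20 cells are given above.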

How the results depend on the processing

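Cd8a, Cd3g and Cd247 kept direction and call over all T cells under every alternative run. The count of members called lower was 1 in place of 2 without cycling-like cells, without Trbv13-1 and Trbv20 cells and in cells thinned to 1500 UMIs, and 1 to 2 when 1 sample was left out. Lck, not called, changed sign to 0.061 without cycling-like cells, 0.038 without Trbv13-1 and Trbv20 cells and 0.086 in thinned cells (the cause was not tested); Cd4 ran from -0.12 to 1.91 over the samples left out. With 1 sample left out, pathway genes called higher were 7 to 19 (main 14), and pairs within states were 3 to 15 higher (main 9) and 2 to 7 lower (main 3); a group left with 1 sample was assumed to vary like the other. The Cd3d share of the 4 chains turned to 0.13 points without Trbv13-1 and Trbv20 cells. Without cycling-like cells, without Trbv13-1 and Trbv20 cells and in thinned cells the Cd3g share differed by 5.13, 4.31 and 4.84 points (main 5.70) and the Cd247 share by -2.34, -2.19 and -2.39 points (main -2.61). At Leiden resolution 1.2 the Cd3g difference at a common mix was 0.21. The share of cells with a UMI differed by 8.04 points for Cd8a and 10.9 for Cd3g at 1000 UMIs, and unthinned by 3.48 for Cd8a, 2.005 for Cd3g, -9.20 for Cd247 and 0.16 for Cd4. The replicate numbers are shared by label only: sample differences correlated at -0.108 over 5192 genes. The replicate block gave 3 members higher and 2 lower, 13 pairs within states higher and 4 lower, and 16 pathway genes higher and 34 lower; the crossed pairing also gave 3 members higher and 2 lower. With 2 samples a group, shares and single values cannot pass an exact test, and genes near 1 CPM such as Cd4 are limited by depth.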
